A study of Homo sapiens with 4 samples.

Results

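MTF-1 occupancy was examined at 8 genes of DNA repair, MSH6, PMS2, XPA, XPC, ERCC1, ERCC2, OGG1 and PARP1, out of 20033 protein-coding genes on the chromosomes 1 to 22, X and Y in GENCODE 44 (GRCh38/hg38). They were chosen by name as genes of mismatch, excision and oxidative repair, the processes that cadmium is known to inhibit, and the rule used no measured value. For each gene, every MTF-1 peak that overlapped the gene or the 10 kb on either side was taken, which gave 68 peaks of the 129429 in both lists. CUT&RUN, in which an antibody (here anti-MTF1) directs a nuclease to the sites of its target and the released DNA is sequenced, was carried out in the breast cancer line MDA-MB-231. Untreated cells, also passaged but without the metal, gave 2 control libraries, and cells selected by serial passage in cadmium sulfate and kept at 10 µM gave 2 cadmium libraries. Whether the cadmium libraries came from separate selections is not stated in the labels. The replicates of each condition were merged before peak calling, so that each condition is 1 list of start and end positions, without height, score or read count. The depth is therefore unknown here, there is no spread between replicates, and all values below compare 2 lists and carry no test between conditions. There were 69299 control and 60130 cadmium peaks, with median widths of 1399 and 999 bp, and the length covered in cadmium was 0.697 times that in control.

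MTF-1 binds DNA through zinc fingers. It is activated by zinc and by metals that displace zinc from metallothionein, and recognises metal response elements. Mismatch repair corrects base mismatches and small loops left by replication. Nucleotide excision repair cuts out a stretch around bulky, helix-distorting damage, and base excision repair removes single damaged bases such as oxidised guanine. Cadmium is a weak direct mutagen but is known to inhibit these pathways, in part because several of their proteins hold zinc in finger domains that cadmium can occupy. These measurements concern MTF-1 on the genes, not the repair proteins or their activity.

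All 8 genes carried an MTF-1 peak at a transcription start site (TSS) in both lists, where a start-site peak is one with a base within 1 kb of any annotated TSS of the gene. Over all protein-coding genes, 73.2% had such a peak in control, 71.5% in cadmium and 70% in both. With the stricter rule that the peak must lie over the TSS of the MANE Select transcript, the reference transcript agreed between RefSeq and Ensembl, all 8 genes again had a peak in both lists, against 63.8% of the 19061 genes with such a transcript. None of the 8 genes thus gained or lost its start-site occupancy as a whole. What differed between the lists was the extent of the peaks and the presence of additional peaks away from the main start. Some of these additional peaks lay near other annotated TSSs of ERCC1.

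The promoters of the 8 genes were taken from RefSeq (GRCh38.p14) as the 250 bases before and the 50 bases after the annotated start, and all 8 were matched. A single annotated start was used per gene. All 300 bases of each promoter were covered by peaks of both lists. The core of the metal response element was searched as TGCACNC or TGCGCNC on both strands, and 5 of the 8 promoters held it, against 29.6% of 35116 promoters of the same length. The upstream sequences of MSH6, XPA, ERCC2 and OGG1 are shown because they hold that core inside occupied start-site sequence. They are written 5′ to 3′ in the direction of the gene, with the matches in capitals, and stop at or before the RefSeq start. The positions are chr2:47782895-47783081 (plus strand) for MSH6, chr9:97697340-97697590 (minus strand) for XPA, chr19:45370694-45370723 (minus strand) for ERCC2 and chr3:9749702-9749943 (plus strand) for OGG1.
MSH6: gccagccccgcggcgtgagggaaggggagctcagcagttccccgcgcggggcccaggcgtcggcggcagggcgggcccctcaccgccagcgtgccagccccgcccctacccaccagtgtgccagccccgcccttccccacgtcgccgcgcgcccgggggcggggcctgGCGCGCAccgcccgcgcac
XPA: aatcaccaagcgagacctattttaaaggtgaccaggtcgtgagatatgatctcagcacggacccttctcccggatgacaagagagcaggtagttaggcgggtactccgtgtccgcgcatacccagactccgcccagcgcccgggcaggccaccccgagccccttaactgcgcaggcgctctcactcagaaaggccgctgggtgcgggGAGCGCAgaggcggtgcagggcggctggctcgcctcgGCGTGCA
ERCC2: ctcgcttttccGTGCGCACgcgcagtatcc
OGG1: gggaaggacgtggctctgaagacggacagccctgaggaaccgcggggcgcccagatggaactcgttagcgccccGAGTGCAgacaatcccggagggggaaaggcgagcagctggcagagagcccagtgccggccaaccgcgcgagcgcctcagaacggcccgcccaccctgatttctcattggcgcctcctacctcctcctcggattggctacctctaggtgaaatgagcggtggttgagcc
Counted from the RefSeq start at 0, the match of MSH6 began at position -82, those of XPA at -43 and -6, and that of OGG1 at -176. In ERCC2 a match on each strand overlapped, at -139 and -138. The fifth promoter was that of XPC, with TGCGCCC at -248. The promoters of PMS2, ERCC1 and PARP1 did not contain these letters in this window. Neither the AP-1 string (TGACTCA or TGAGTCA) nor a forkhead string (GTAAACA or GTAAATA or ATAAACA or ATAAATA) was in any of the 8 promoters, against 4.95% and 13.6% of all promoters. The GC content of the 8 promoters lay between 52.3% for ERCC1 and 78.0% for MSH6. It was not compared with that of the other promoters, and its part in the share with the core was not tested. For ERCC1 the RefSeq start used lies at 45451547 on chromosome 19, upstream of the MANE Select TSS at 45423917. The sequence at the MANE Select TSS of ERCC1 was thus not searched as a promoter. The absence of the core from the ERCC1 promoter holds for the upstream start only. A match in these short strings describes the sequence and does not show a bound site.

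MSH6, a mismatch recognition protein, lies on chromosome 2 from 47695530 to 47810063 on the plus strand. Its start-site peak ran from 47782401 to 47786199 in control, a width of 3799 bp, and from 47781801 to 47784799 in cadmium, a width of 2999 bp. In cadmium the peak thus reached 1344 bp upstream of the MANE Select TSS instead of 744 bp, and 1654 bp into the gene instead of 3054 bp. Both lists also held 2 narrow peaks in sequence upstream of the MANE Select transcript, within the span of longer annotated transcripts. The one at chr2:47752401-47753199 had the same bounds in both lists, and the other began at 47771201 and was 399 bp wide in control and 599 bp in cadmium. In all, peaks covered 4997 bp of the MSH6 window in control and 4397 bp in cadmium, with no lost and no gained peak.

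PMS2, an endonuclease subunit that acts after mismatch recognition, lies on chromosome 7 from 5970925 to 6009130 on the minus strand. The start-site peak spanned 2799 bp in control and 1999 bp in cadmium, and its edge within the gene, at 6008001, was shared. The difference lay on the upstream side, where the peak reached 1750 bp from the TSS in control and 950 bp in cadmium. This side holds the start of AIMP2, a scaffold protein of the tRNA synthetase complex, which is transcribed in the opposite direction from 223 bp away and lies under the same peak in both lists. Within the gene, the peak over exon 7 (chr7:5997201-5997599) had equal bounds in both lists, and the peak over exon 8 was 1199 bp wide in control and 599 bp in cadmium.

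A gained peak, meaning a cadmium peak that shares no base with any control peak, lay in intron 11 of PMS2 at chr7:5984001-5984399. Its central 300 bases, chr7:5984051-5984350 on the plus strand, are shown because the peak is the only change in presence at a mismatch repair gene among the 8, with the metal response element core in capitals.
PMS2 intron 11: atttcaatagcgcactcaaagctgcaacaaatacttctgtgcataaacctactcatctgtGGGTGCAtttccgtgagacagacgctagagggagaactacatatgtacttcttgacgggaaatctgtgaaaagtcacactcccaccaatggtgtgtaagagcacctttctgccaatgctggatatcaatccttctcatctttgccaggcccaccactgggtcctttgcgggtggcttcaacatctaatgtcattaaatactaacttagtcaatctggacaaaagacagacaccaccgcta
Of the 399 bp, 98.5% matched a second place on the same chromosome, from 6740278 to 6740671 within the pseudogene PMS2CL, at 97.7% identity over 394 bp. How the reads of these similar copies were placed is not known from the lists, so the PMS2 origin of this peak is uncertain. Among the 68 peaks, 2 had a second copy of at least 350 bp at 95% identity or more. The other was the cadmium start-site peak of XPA, with 12.1% of its bases in such a copy.

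**Figure D1:**
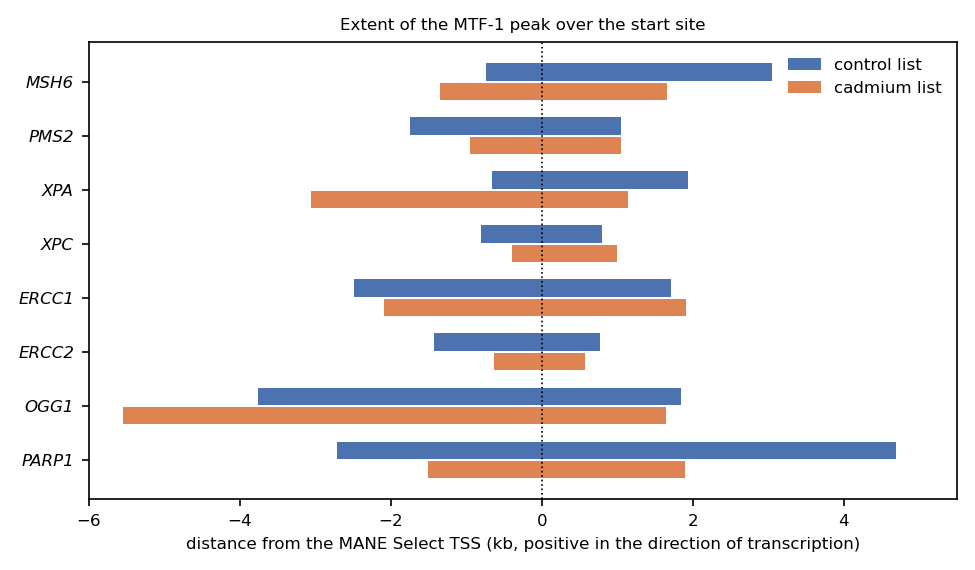
Extent of the MTF-1 peak over the MANE Select TSS of the 8 repair genes in the control list (blue) and the cadmium list (orange). The horizontal axis is the distance from the TSS in kb, positive in the direction of transcription. The bar is shorter in cadmium for 6 genes, most of all for PARP1 (7399 bp in control and 3399 bp in cadmium), and longer for XPA and OGG1.

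XPC, the protein that finds helix distortions for global genome repair, lies on chromosome 3 from 14145147 to 14178621 on the minus strand. Its start-site peak was 1599 bp wide in control and 1399 bp in cadmium, and it also covered the start of LSM3, a subunit of an RNA-binding ring of the spliceosome, 216 bp away on the opposite strand. A peak in intron 1 was 1599 bp wide in control and 399 bp in cadmium. At the other end of the gene, over exon 16, the last exon, the relation was the opposite, with a peak of 3399 bp in control that lay wholly within a cadmium peak of 6599 bp. This end also holds the starts of XPC-AS1 and of other annotated transcripts, so that the wide peak cannot be assigned to XPC alone.

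Beyond the end of XPC, the control peak at chr3:14136801-14137799 shared no base with a cadmium peak and was counted as lost. It lies within TMEM43, a gene for a membrane protein, 41301 bp from the MANE Select TSS of XPC. The stretch chr3:14137234-14137470 (plus strand) is shown because it holds the AP-1 string, in capitals, near the centre of this lost peak.
XPC downstream: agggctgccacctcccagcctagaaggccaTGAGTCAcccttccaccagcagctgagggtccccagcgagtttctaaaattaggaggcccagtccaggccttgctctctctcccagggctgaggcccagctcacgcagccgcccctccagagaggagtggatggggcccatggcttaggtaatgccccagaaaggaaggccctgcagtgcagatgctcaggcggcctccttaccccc
The AP-1 match lies at 14137264 to 14137270.

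XPA, a zinc finger protein that verifies damage and positions the incision complex, lies on chromosome 9 from 97674909 to 97697340 on the minus strand. Its occupancy was rearranged without a lost or gained peak. In control, the start-site peak of 2599 bp was separate from a 399 bp peak further upstream, at chr9:97699201-97699599. In cadmium a single peak of 4199 bp covered both, from 97696201 to 97700399, and reached 3059 bp upstream of the TSS, where the control start-site peak reached 659 bp. This upstream stretch runs into KRT18P13, a keratin pseudogene. On the downstream side the cadmium peak reached 1139 bp into the gene and the control peak 1939 bp. A wide control peak further upstream, 6199 bp from 97701201 to 97707399 and cut by the edge of the window, overlapped a cadmium peak of only 1999 bp. In the window as a whole 10737 bp were covered in control and 6997 bp in cadmium, and 46.5% of the control bases were covered in cadmium, the smallest share of the 8 genes.

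ERCC2 (XPD), a helicase of the TFIIH complex that opens the DNA around the lesion, lies on chromosome 19 from 45349837 to 45370918 on the minus strand. The start-site peak was 2199 bp wide in control and 1199 bp in cadmium, with both edges closer to the TSS in cadmium. Towards the end of the gene, 1 control peak of 4799 bp over exons 17 to 23 overlapped cadmium peaks of 1399 bp, over exons 18 and 19, and 399 bp, over exon 16. Cadmium also had 2 gained peaks here. The wider, 1799 bp at chr19:45348401-45350199, overlaps part of exon 23, the last exon, and extends past the end of ERCC2 at 45349837. Its centre lies beyond the gene, and it overlaps KLC3, a kinesin light chain gene. The other, 799 bp at chr19:45379601-45380399, lies 9427 bp upstream of the TSS and overlaps the end of PPP1R13L, the gene of a p53-binding inhibitor. A shared peak at KLC3 was 5599 bp wide in control and 3799 bp in cadmium, and a shared peak upstream of ERCC2 2399 and 1599 bp.

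ERCC1, which with ERCC4 (XPF) makes the incision on the 5′ side of the lesion, lies near ERCC2 on chromosome 19, with PPP1R13L between them. Their windows do not overlap. Of the 8 genes it was by far the most densely covered, with 57590 bp or 62.9% of its window in control and 46990 bp or 51.4% in cadmium, in 10 peaks of each list. GENCODE draws the gene from 45407334 to 45478828, because some annotated transcripts start far upstream, whereas the MANE Select transcript spans 16.6 kb. The widest peak in the window, 15799 bp in control and 13599 bp in cadmium, lies over the start of FOSB, an AP-1 transcription factor gene 44.1 kb upstream of the ERCC1 MANE Select TSS. The values of the full window thus describe several genes.

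With the MANE Select bounds plus and minus 10 kb, ERCC1 had 5 control peaks over 20995 bp and 3 cadmium peaks over 12997 bp. The ratio was 0.619. These lengths include a peak of 9799 bp in control and 6399 bp in cadmium near the starts of POLR1G and PPP1R13L. The ratio thus does not describe ERCC1 alone. Both peaks that made up the difference in number were lost and lay inside the transcript, within 1 kb of other annotated TSSs of ERCC1. By the rule used here they were thus start-site peaks. Of the 18 annotated TSSs of ERCC1, 16 had a peak within 1 kb in control and 13 in cadmium. The peak chr19:45417401-45421199, 3799 bp wide, covered exons 3 to 5, and the peak chr19:45416001-45416399 lay in intron 6. The first peak of the transcript, over exons 1 and 2, was 4199 bp wide in control and 3999 bp in cadmium. In the wider lost peak the core occurred 6 times in 3799 bp and the AP-1 string once. Shared control peaks of the same window held the core 10 times in 2399 bp (from 45439001) and 3 times in 4199 bp (from 45422201). The number expected from length and GC content was not computed, so the 6 matches describe the sequence only. The gained peak of the ERCC1 window, chr19:45436801-45437199, lies 13083 bp upstream of the MANE Select TSS, close to the microRNA gene MIR6088.

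OGG1, the glycosylase that removes oxidised guanine, lies on chromosome 3 from 9749944 to 9788219 on the plus strand. Its start-site peak was wider in cadmium, 7199 bp against 5599 bp in control. It reached 5551 bp upstream of the TSS in cadmium and 3751 bp in control, over sequence that belongs to the end of BRPF1, while the edge within the gene was nearly the same, at 1647 bp and 1847 bp. A gained peak of 599 bp lay over exon 4 at chr3:9754401-9754999. The other peaks of the window were shared and lay at the starts of neighbours, CAMK1 and the pair TADA3 and ARPC4. In all, 12597 bp were covered in control and 14196 bp in cadmium. With the MANE Select bounds plus and minus 10 kb, which leave out the peaks at CAMK1, TADA3 and ARPC4 but not the stretch over BRPF1, the values were 5599 bp and 7798 bp, a ratio of 1.39.

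PARP1, the zinc finger enzyme that senses DNA strand breaks, lies on chromosome 1 from 226360210 to 226408154 on the minus strand. The control list held 1 peak in its window, 7399 bp from 226403401 to 226410799. In cadmium there were 2 peaks within the same bounds, 3399 bp over the TSS and 799 bp in intron 1. No cadmium base lay outside the control peak, and 56.7% of the control bases were kept. The cadmium peak reached 1892 bp into the gene and the control peak 4692 bp.

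**Figure D2:**
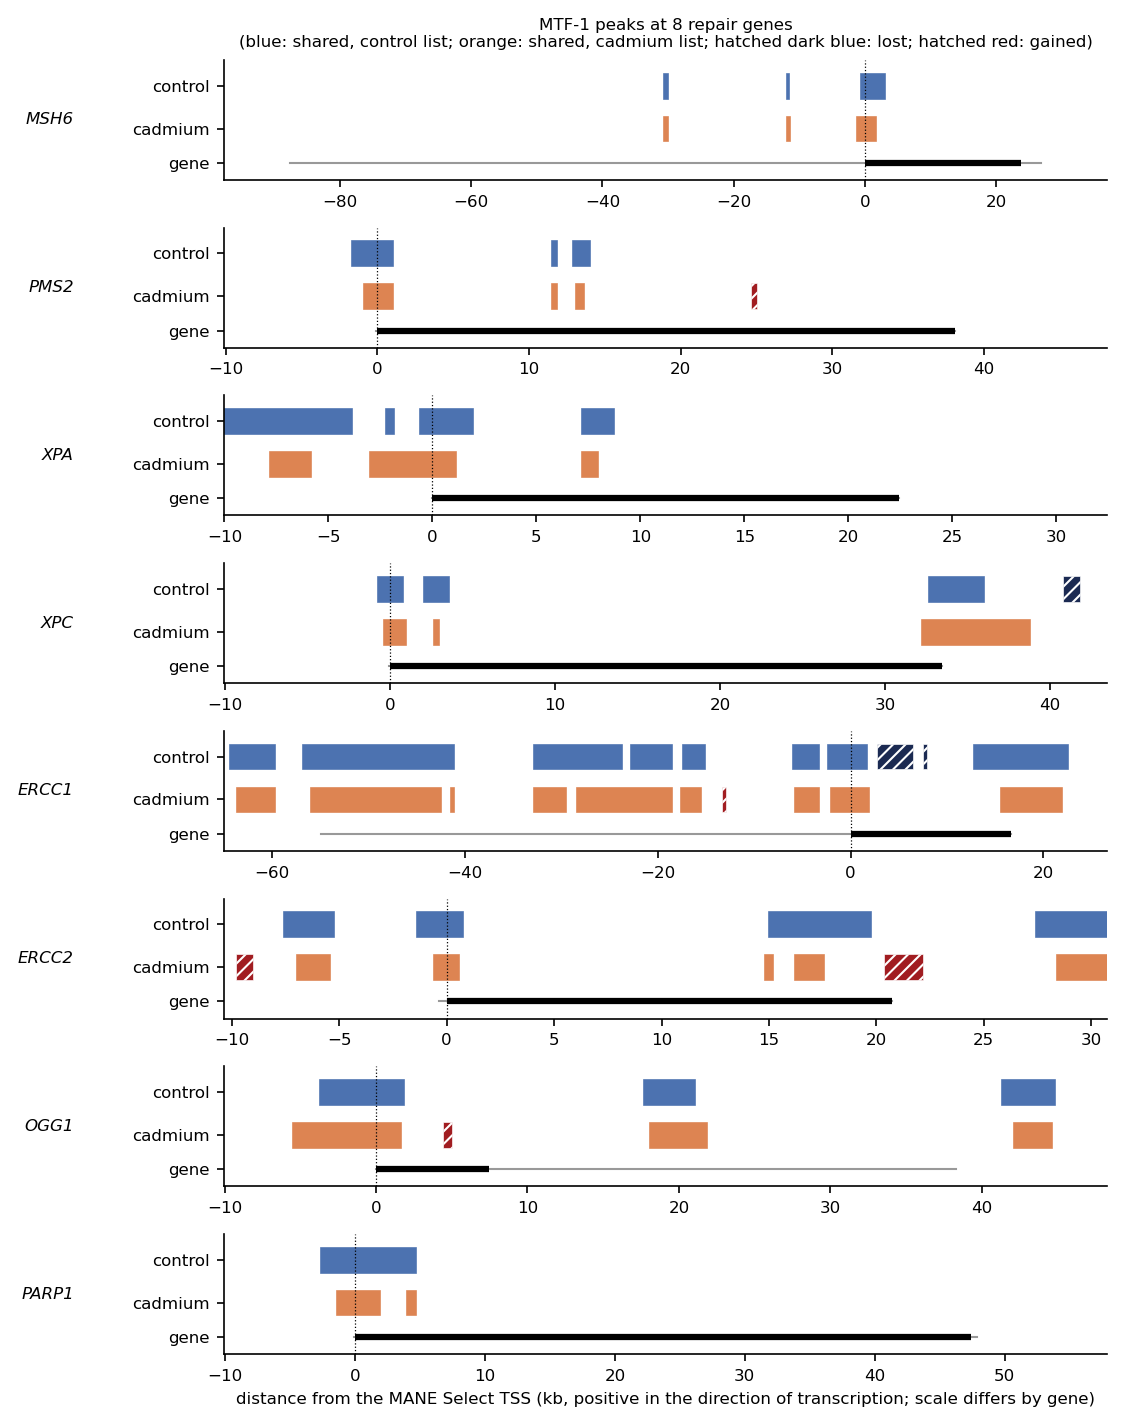
Positions of all MTF-1 peaks in the windows of the 8 genes, with the control list above the cadmium list in each panel. The horizontal axis is the distance from the MANE Select TSS in kb, on a scale that differs by gene, the black line is the MANE Select transcript, the grey line is the whole annotated gene and hatched bars are lost (dark blue) or gained (red) peaks. The 3 lost peaks lie at XPC and ERCC1, and the 5 gained peaks at PMS2, ERCC1, ERCC2 (2) and OGG1.

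The windows together held 32 control peaks and 36 cadmium peaks, in 35 separate sites. Among peaks of at least 1000 bp the order was the opposite, with 26 in control and 23 in cadmium. Of these sites 27 were shared, 3 were in control only and 5 in cadmium only. Among the shared sites, 22 had 1 peak in each list and 5 were split or joined. Of the control peaks 13 lay within 1 kb of a TSS of the gene itself and 12 within 1 kb of a TSS of another gene, and of the cadmium peaks 11 and 13. In control the peaks were between 399 and 15799 bp wide, with a median of 3099 bp. In cadmium they were between 399 and 13599 bp wide, with a median of 1899 bp. The bounds of a peak were identical in both lists at 2 sites. Of the 36 cadmium peaks 20 lay wholly within control peaks, and of the 32 control peaks 6 lay wholly within cadmium peaks. The same shares over all peaks are not given here. The whole cadmium list was also the narrower, with a median of 999 bp against 1399 bp in control.

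Lost peaks made up 3 of 32 control peaks, or 9.38% (exact 95% binomial interval 1.98 to 25.0%), whereas 27.9% of the whole control list was lost. Gained peaks made up 5 of 36 cadmium peaks, or 13.9% (4.67 to 29.5%), beside 15.1% of the whole list. The counts depended on the rule. When a shared peak had to have 50% of its bases in the other list, 8 control peaks (25.0%) were lost and 6 cadmium peaks (16.7%) gained, beside 46.2% and 21.5% of the whole lists. In another setting both lists were first cut to peaks of at least 1000 bp. Of these, 4 (15.4%) were lost and 1 (4.35%) gained, beside 42.3% and 17.1% of the lists so cut. There a peak also counted as lost or gained where its only partner in the other list was narrower than 1000 bp. Of the 3 peaks lost under the main rule, those at XPC (999 bp) and in ERCC1 intron 6 (399 bp) were below this width. The intervals cover counting error only, and neighbouring peaks are not independent. The control peaks here were also wider than the whole list, with medians of 3099 and 1399 bp, and a wider peak can more readily share 1 base. All lost peaks of the list had a median width of 999 bp. The part of peak width in the lower share of lost peaks was not tested. The lost peaks were in the windows of 2 genes and the gained peaks in those of 4. Over all protein-coding genes, 38% had a lost and 24.4% a gained peak in the window. The median window was 58.2 kb long for the 8 genes and 47.5 kb over all genes, and a longer window can hold more peaks. MSH6, XPA and PARP1 had neither a lost nor a gained peak.

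The start-site peak was narrower in cadmium at 6 of the 8 genes and wider at 2. Of 12164 genes with a peak over the MANE Select TSS in both lists, 61.1% had a narrower and 25.8% a wider peak in cadmium. The ratio of its width in cadmium to that in control ranged from 0.459 for PARP1 to 1.62 for XPA, with a median of 0.832, and the median over all genes was 0.875. The edges moved on different sides. In PMS2 only the upstream edge differed, in MSH6 the peak was shorter within the gene and longer upstream, and in ERCC2 and PARP1 it was shorter on both sides. At XPC and ERCC1 the widths differed by 200 bp, the step to which peak edges are resolved, but both edges differed. The upstream reach was 798 bp in control and 398 bp in cadmium at XPC, and 2482 and 2082 bp at ERCC1. Into the gene the peaks reached 800 and 1000 bp at XPC, and 1716 and 1916 bp at ERCC1. The wider cadmium peak of XPA also covered a separate 399 bp control peak.

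Counted in bases, 6 of the 8 windows were covered over a shorter length in cadmium and 2, those of XPC and OGG1, over a longer length. For XPC this rested on sequence beyond the gene, since the ratio was 0.817 over the gene body alone. Among 16699 protein-coding genes covered in both lists, 72.4% had fewer and 23.4% more covered bases in cadmium. The ratio of cadmium to control bases was 0.567 for PARP1, 0.652 for XPA, 0.749 for ERCC2, 0.772 for PMS2, 0.816 for ERCC1, 0.88 for MSH6, 1.11 for XPC and 1.13 for OGG1. PARP1 and XPA thus had at least 1.5 times fewer bases in cadmium, as 37.3% of all genes did. None of the 8 had 1.5 times more, a difference that 5.95% of all genes reached. The median ratio of the 8 was 0.794 and that of all genes 0.773. PARP1 stood at percentile 24.9 of all genes and OGG1 at percentile 83.3.

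Summed over the 8 windows, 118073 bp were covered in control and 98128 bp in cadmium, a ratio of 0.831. Of the control bases, 71.1% were also covered in cadmium, and of the cadmium bases 85.5% were covered in control. The shares over the whole lists were 55.3% and 79.4%. ERCC1 contributed much of the sum, and without it, a choice made after the values were seen, the ratio was 0.845, with 1 lost and 4 gained peaks.

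**Figure D3:**
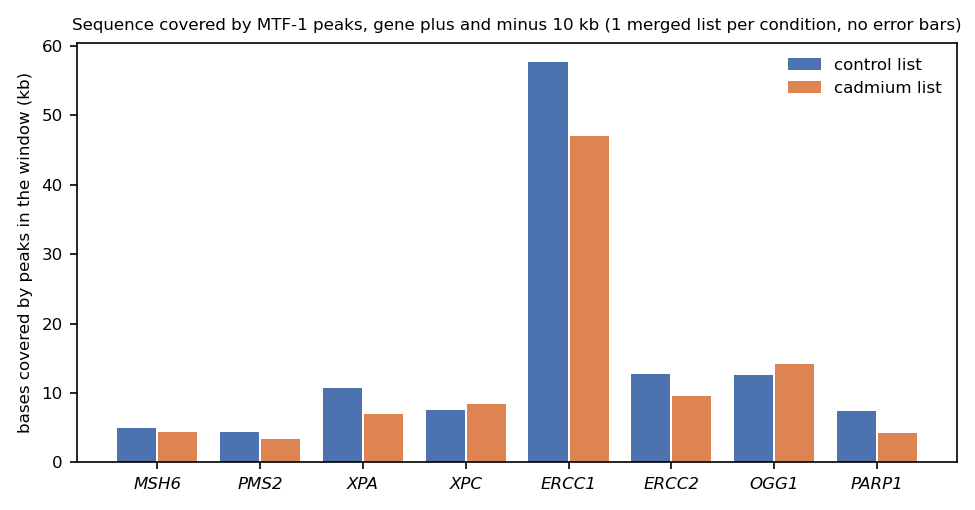
Length covered by MTF-1 peaks, in kb, in the window of each gene plus and minus 10 kb for the control list (blue) and the cadmium list (orange). Each bar is the value of 1 merged list, so there are no error bars. ERCC1 has the largest values, 57590 bp in control and 46990 bp in cadmium, and only XPC and OGG1 have the larger bar in cadmium.

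**Figure D4:**
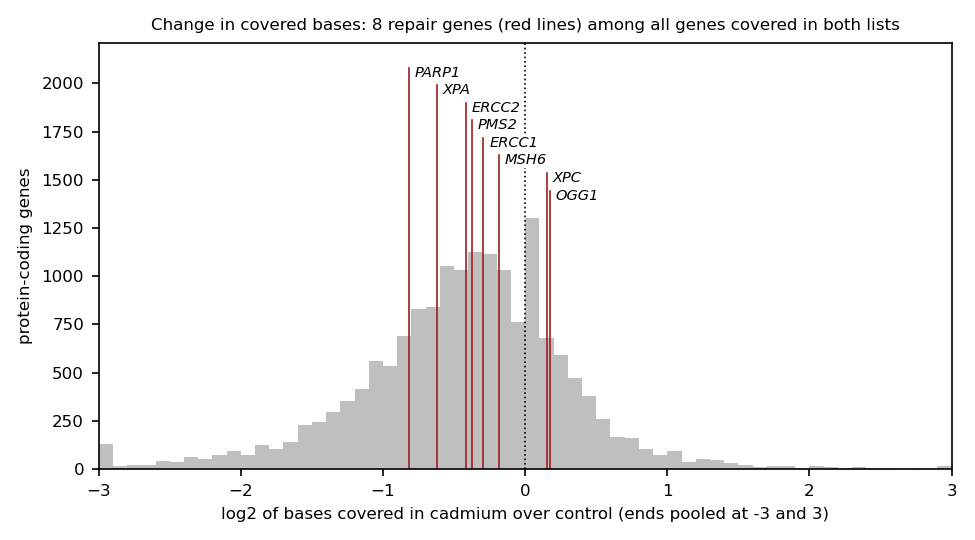
Histogram of the log2 ratio of covered bases, cadmium over control, in 16699 protein-coding genes covered in both lists, with the 8 repair genes as red lines. The vertical axis counts genes, and the end bins pool all values beyond -3 and 3. The lines lie between -0.82 (PARP1) and 0.17 (OGG1), within the broad centre of the distribution.

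Peaks were also searched for the short strings in the 500 bp around each peak centre, a window that extends beyond the narrowest peaks. The metal response element core was found in 19 of the 29 shared peaks of the control list, or 65.5%, beside 36.5% of all shared control peaks. In the shared peaks of the cadmium list it was found in 13 of 31, or 41.9%, beside 36.5%. The sites are the same in both counts, and the centres differ because the widths do. The median GC content of the shared peaks of the 8 genes was 53.0% in the control list and 51.8% in the cadmium list, and over all shared peaks it was 49.2% and 49.8%. Its part in the share of peaks with the core was not tested.

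The AP-1 string was in 5 of the 29 shared control peaks and 5 of the 31 shared cadmium peaks, or 17.2% and 16.1%, beside 24.5% and 27.5% of all shared peaks. None of the 5 gained peaks had it in this window, where 32.6% of all gained peaks did. The gained peak upstream of ERCC2 held the string TGAGTCA outside that window, at 45379603. Of the 3 lost peaks, the one beyond XPC had the AP-1 string in this window, as 24.5% of all lost peaks did. None had a forkhead string in this window, which 41.1% of all lost peaks had. The metal response element core was in 2 of the 3 lost and 2 of the 5 gained peaks, beside 28.8% and 30.6% of all. With so few lost and gained peaks these counts describe single sites.

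The other genes of the same pathways were described by the same rules, from a list of 59 repair genes that includes the 8. Of the other 51, 49 had a start-site peak in both lists, beside 70% of all protein-coding genes. MGMT, which reverses alkylated guanine directly, had its only peak, 1399 bp at the start site, in control and no peak in cadmium. GTF2H2, a TFIIH subunit, had no peak in either list. The gene has similar copies in the genome, and the placing of reads among them was not tested. At least 1 lost peak was found in 18 of these windows and at least 1 gained peak in 17, beside 38% and 24.4% of all genes. Of the 49 genes covered in both lists, 34 had fewer, 14 had more and 1 had the same number of bases covered in cadmium. Over all genes covered in both lists, 72.4% had fewer and 23.4% more. The ratio was at least 1.5 times lower at 14 of the 49 and at least 1.5 times higher at 1, beside 37.3% and 5.95% of all genes. The median ratio was 0.826, and 0.773 over all genes.

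Among the other mismatch repair genes, 8 of 10 had fewer covered bases in cadmium and the median ratio was 0.672. Over all genes covered in both lists, 72.4% had fewer and the median ratio was 0.773. The lowest ratios were those of POLD1, the catalytic subunit of DNA polymerase delta (0.301), and MLH3 (0.378), and the exonuclease EXO1 (1.33) was covered over more bases in cadmium. At POLD1 the start-site peak was 11199 bp wide in control and 2199 bp in cadmium.

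In nucleotide excision repair, 15 of the other 16 genes were covered in both lists, 9 over fewer and 6 over more bases in cadmium, with a median ratio of 0.976. The TFIIH subunits GTF2H3 (0.312) and GTF2H5 (0.5) had the lowest ratios, and another subunit, GTF2H4 (1.32), the highest, followed by XAB2 (1.2), an XPA-binding protein. The partner of ERCC1, ERCC4, had a ratio of 0.929. The subunits of TFIIH thus lay on both sides of ERCC2.

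For base excision and single-strand break repair, 14 of 21 other genes had fewer and 6 more covered bases in cadmium, and 1, NTHL1, had the same number, with a median ratio of 0.826. The lowest ratios belonged to the uracil glycosylase SMUG1 (0.304) and the endonuclease APEX2 (0.48). NEIL1, a glycosylase for oxidised bases, had the highest, 1.5, from 1199 bp in control and 1799 bp in cadmium, followed by TDP1 (1.29). NUDT1, ALKBH2 and ALKBH3, which clean the nucleotide pool or reverse damage directly, had ratios of 0.841, 0.833 and 0.8.

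By the ratio of covered bases alone, 1 value per gene from 2 lists, the repair gene closest to PARP1 was PMS1 (0.555), and the closest to OGG1 was MPG (1.13), a glycosylase for alkylated bases. The log2 ratios differed by 0.031 and 0.008.

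**Figure D5:**
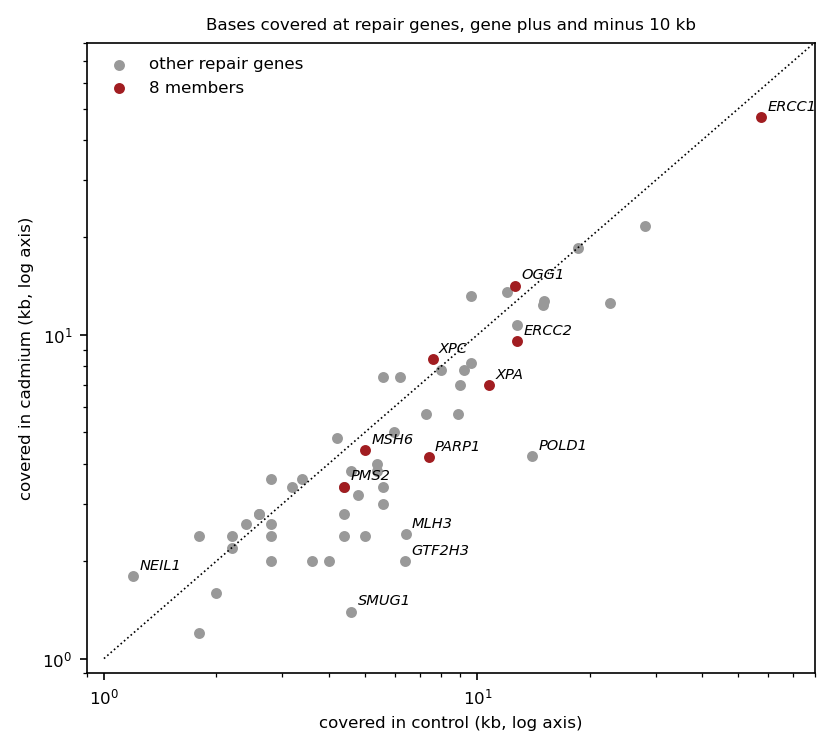
Bases covered by MTF-1 peaks in kb, control on the horizontal and cadmium on the vertical axis, both log axes, for the 8 genes (red) and the other repair genes covered in both lists (grey). The dotted line marks equal values. ERCC1 has the highest values of all, and of the 8 genes only XPC (1.11) and OGG1 (1.13) lie above the line.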

How the data were processed

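CUT&RUN libraries were made by the authors, trimmed, aligned to hg38 with Bowtie2 and merged by condition with SAMtools (1.8 in the submitters' processing notes). Peaks were called by the authors on the merged reads with Epic2 at default parameters; the processing notes name the caller as SICER, on whose method Epic2 is built. No control library is named. The deposited lists hold chromosome, start and end, and a constant that was not used. Starts in the files, counted from 0, are multiples of 200 bp, so edges are resolved to bins of that size. Printed positions count from 1, and widths are the file's end minus its start.

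Each list is 1 sample of its condition, and no test was made. A peak was shared when at least 1 base overlapped the other list, and otherwise lost (control) or gained (cadmium). Windows and TSS positions were taken from GENCODE 44. Sequence was read with pysam 0.24.0, second copies were searched with minimap2 2.31 (limits set after a stricter first search found none), and exact binomial intervals were computed with scipy 1.17.1. Peak classes and covered bases were tested on simulated lists, in which shared peaks had equal bounds in both, and the string search on a made-up sequence. Peaks that overlap only in part, split or joined peaks and the start-site rule were not simulated. The genes, lists and strings were chosen with earlier results of these data known. Named by rule were the 8 genes, other repair genes with a start-site peak in only 1 list or neither, the 2 lowest and 2 highest ratios per pathway and the closest to the lowest and highest of the 8. PARP1 and OGG1 were those. Neighbours and partners (such as AIMP2, FOSB and ERCC4) were named for their position or pairing after the values were seen. Some items that the rule would name are not reported here.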

Additional observations from a re-analysis of the deposited data

How the results depend on the processing

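The count of 8 genes with a start-site peak was the same in both lists for peaks over the TSS itself, peaks within 3 kb, the MANE Select TSS alone, and peaks of at least 400 or 1000 bp. Since all 8 already counted, the wider distance of 3 kb could not change the count. Of 42 values over the 8 genes under other settings, those at 3 kb included, 38 stayed within 1.5 times. With peaks of at least 1000 bp, cadmium peaks in the windows numbered 23, below the 26 control peaks, and gained peaks 1. Lost peaks numbered 8 when sharing required coverage of 50% of the peak, and 1 without ERCC1, a setting added after the data were seen. The ratio of covered bases ranged from 0.769 with MANE Select bounds to 0.845 without ERCC1. For single genes, 39 of 40 ratios stayed within 1.5 times. The exception was PMS2, at 0.5 with peaks of at least 1000 bp. XPC turned from 1.11 to 0.817 when only the gene body was counted. No paired analysis was possible because the replicates were merged before peak calling, and for the same reason no replicate could be left out. The unknown depth limits all comparisons of extent.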
